A study of Mus musculus with 8 samples.

Results

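Cd200, Cntf, Cables1, Lims2, Nupr1 and Gadd45b are 6 transcripts of mouse ovarian granulosa cells that stood strongly lower 44 h after PMSG than in untreated cells, in at least 1 genotype, and are not known as oocyte genes. They are 6 of the 23235 genes with a row in the table of expression values, and all 6 were among the 13688 genes kept for testing. The genes were taken by symbol, and the symbols had been chosen from the 44 h minus 0 h differences in knockout cells, in wild-type cells or in both. Those differences are therefore given as a description, without a test. The study measured total RNA of granulosa cells from female C57BL/6 mice in 8 libraries, with 2 libraries in each of 4 groups. The groups were CNOT6/6L knockout (KO) cells 44 h after PMSG, untreated KO cells (0 h), wild-type (WT) cells 44 h after PMSG and untreated WT cells (0 h). The labels gave no PMSG dose, no age, no account of which part of either gene was deleted and no statement that the replicates came from separate animals. P-values here therefore weigh differences only against the scatter of these libraries, which could be technical. Cells are called treated 44 h after PMSG and untreated at 0 h.

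PMSG is a gonadotropin that acts on the FSH receptor of granulosa cells and drives follicles towards ovulation. CNOT6 and CNOT6L are deadenylases of the CCR4-NOT complex, which shortens the poly(A) tails of mRNAs and so starts their decay. The 6 genes come from several pathways. Cd200 encodes a surface glycoprotein whose receptor damps myeloid cells, and Cntf encodes ciliary neurotrophic factor, a cytokine that signals through the gp130 receptor chain. Cables1 encodes an adaptor that joins cyclin-dependent kinases to the kinases that phosphorylate them, and Lims2 encodes PINCH2, a LIM-domain adaptor that binds integrin-linked kinase at cell adhesions. Nupr1 encodes a small stress-induced chromatin protein that lies downstream of ATF4, and Gadd45b encodes a stress-induced protein that binds the kinase MAP3K4.

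Promoters of 4 of the genes are shown, those of Cd200, Cntf and Nupr1 because these genes moved together over the libraries and those of Nupr1 and Gadd45b because both are known as stress-responsive genes. Cables1 moved with Cd200, Cntf and Nupr1 as well, but its promoter is not shown. Each is the 300 bases from 250 before to 50 after the gene's start, 5′ to 3′ on the gene's own strand, from RefSeq on the GRCm38.p6 build. The positions are chr16:45409004-45409303 (minus strand) for Cd200, chr19:12765583-12765882 (minus strand) for Cntf, chr7:126625421-126625720 (minus strand) for Nupr1 and chr10:80929841-80930140 (plus strand) for Gadd45b. Capitals mark every match, on either strand, to the motifs named next.
Cd200: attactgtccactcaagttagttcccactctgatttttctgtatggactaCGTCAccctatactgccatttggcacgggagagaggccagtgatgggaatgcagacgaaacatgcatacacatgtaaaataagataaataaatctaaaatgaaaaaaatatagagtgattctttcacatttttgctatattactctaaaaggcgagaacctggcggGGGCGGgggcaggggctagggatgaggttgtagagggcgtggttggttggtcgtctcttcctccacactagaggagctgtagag
Cntf: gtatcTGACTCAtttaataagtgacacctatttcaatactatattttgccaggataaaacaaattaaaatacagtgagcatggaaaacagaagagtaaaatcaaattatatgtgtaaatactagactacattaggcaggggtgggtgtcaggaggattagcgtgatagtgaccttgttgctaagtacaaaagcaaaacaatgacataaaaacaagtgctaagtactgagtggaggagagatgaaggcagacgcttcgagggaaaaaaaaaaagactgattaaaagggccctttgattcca
Nupr1: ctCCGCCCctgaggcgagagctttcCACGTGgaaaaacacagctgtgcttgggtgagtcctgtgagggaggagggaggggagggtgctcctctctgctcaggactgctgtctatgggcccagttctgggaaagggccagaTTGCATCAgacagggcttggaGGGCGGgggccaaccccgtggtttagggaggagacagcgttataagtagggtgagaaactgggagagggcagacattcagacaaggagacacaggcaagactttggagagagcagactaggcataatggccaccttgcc
Gadd45b: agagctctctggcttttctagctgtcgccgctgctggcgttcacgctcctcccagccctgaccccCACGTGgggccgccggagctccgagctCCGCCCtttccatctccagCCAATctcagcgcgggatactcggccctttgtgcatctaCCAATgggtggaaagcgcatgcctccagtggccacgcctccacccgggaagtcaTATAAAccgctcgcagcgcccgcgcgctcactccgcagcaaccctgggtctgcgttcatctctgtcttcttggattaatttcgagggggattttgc

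The motifs searched were the CRE half-site TGACG, the E-box CACGTG, the ATF-C/EBP composite TGATGNAA, the FOXO motif GTAAACA, the NF-kB motif (GGG and TTTCC with NN between them), the STAT motif TTCCNGGAA, the AP-1 motif TGANTCA, the GC box GGGCGG, the CCAAT box and the TATA motif TATAAA. Nupr1 held an ATF-C/EBP composite, read as TTGCATCA, whose first base lies 110 bases upstream of the start, a motif present in 3.97% of the 32851 promoters of this length. Nupr1 and Gadd45b each held an E-box, 225 and 185 bases upstream, and 7.15% of promoters hold one. Cntf held an AP-1 motif 245 bases upstream, as 7.81% of promoters do, and no other match. Cd200 held a CRE half-site 200 bases upstream, as 20.8% of promoters do, and a GC box 34 bases upstream. Gadd45b also held a GC box, CCAAT boxes 139 and 100 bases upstream and a TATA motif 46 bases upstream, and Nupr1 held GC boxes 248 and 89 bases upstream. GC boxes, CCAAT boxes and TATA motifs are present in 35.7%, 37.4% and 13.6% of promoters. The FOXO, NF-kB and STAT motifs had no match in these 4 windows, and they are present in 3.65%, 1.63% and 1.15% of promoters. No motif was present in all 4 promoters. Their GC content was 45.0% in Cd200, 36.3% in Cntf, 58.3% in Nupr1 and 62.0% in Gadd45b, against a median of 52.7% over all promoters. A match is a description of the letters and not a bound site.

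The libraries had relative depths of 0.904 to 1.25, where 1 is the median library, and FPKM sums of 675557 to 753216. FPKM gives the number of fragments relative to transcript length and sequencing depth. Cnot6 and Cnot6l do not check the genotype labels well: Cnot6 was 26.7 and 17.4 FPKM in treated KO cells, 11.7 and 12.0 in untreated KO cells, 26.0 and 26.9 in treated WT cells, and 29.1 and 18.4 in untreated WT cells. Cnot6l was 2.01 and 1.61 FPKM in treated KO cells, 4.69 and 1.97 in untreated KO cells, 4.20 and 2.63 in treated WT cells, and 6.11 and 7.07 in untreated WT cells. Cnot6 in treated KO cells thus overlapped WT, and KO below means the libraries so labelled. The library labelled KO replicate 1 at 44 h stood apart: Cyp11a1, the enzyme that starts steroid synthesis, was 129 FPKM in it, against 2508 in KO replicate 2 and 4451 and 4339 in treated WT cells. Between the KO libraries at 44 h 1527 genes differed at least 2-fold, against 317 to 432 genes between the replicates of the other groups. The granulosa markers Foxl2 (14.1 to 25.2 FPKM) and Inha (8434 to 23238 FPKM) were present in every library.

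In KO cells all 6 genes were lower at 44 h, with log2 differences from -1.44 to -2.35 and a median of -1.99. In WT cells the differences ran from -0.44 to -2.24 with a median of -1.72, and the smallest were those of Gadd45b (-0.44) and Lims2 (-0.79). Differences are in log2(FPKM + 1), a scale that understates the change of genes with low values. The median over all 13688 genes was -0.11 in KO and -0.13 in WT on the same scale. Both KO libraries at 44 h lay below both KO libraries at 0 h for 6 of the 6 genes, as they did for 34.1% of all genes tested. Both WT libraries at 44 h lay below both WT libraries at 0 h for 5 of the 6, the exception being Gadd45b, and for 40.6% of all genes. At an adjusted p under 0.05 (limma, Benjamini-Hochberg over all genes), 6 of the 9 genes called lower in KO and 3 of the 4 called lower in WT were members, Cntf, Cables1 and Cd200 in both. The share of all genes called lower was 0.0658% in KO and 0.0292% in WT. These calls chose the members and support nothing here. In bulk RNA, fewer cells of a type and less RNA per cell cannot be told apart.

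In KO the called gene nearest the threshold was Cables1, with a log2 difference of -1.52, and the nearest genes outside it, P4ha3 (-1.92), Angptl1 (-2.03) and Slc18a2 (-3.05), had larger differences. In WT the nearest inside was again Cables1 (-1.78), and the nearest outside was Nupr1 (-2.11), itself one of the 6. Ranked by the size of the WT difference alone, Cntf was the 33rd lowest of the 13688 genes, Nupr1 the 38th, Cables1 the 55th and Cd200 the 63rd, while Lims2 was the 1117th and Gadd45b the 3245th.

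**Figure D1:**
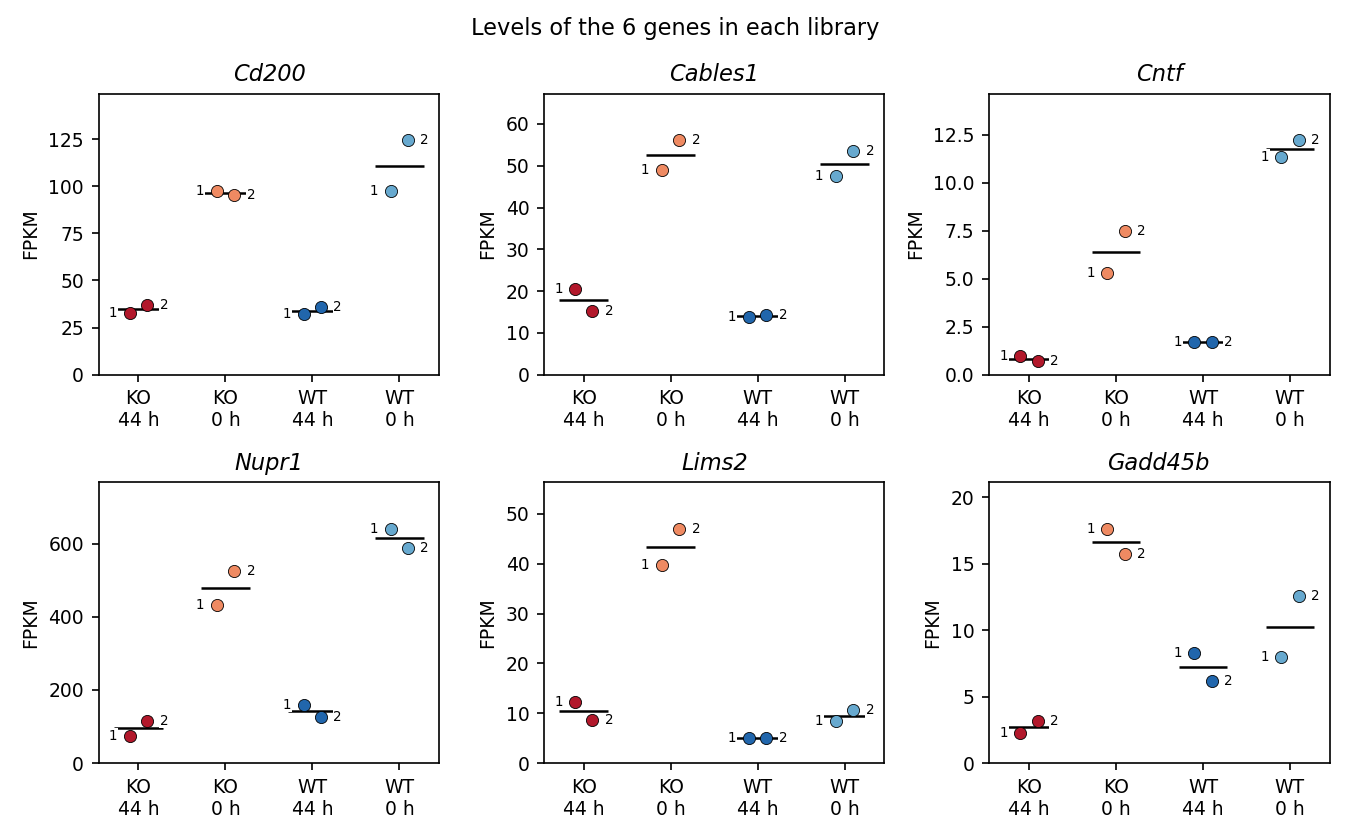
FPKM of each gene in each library, with KO and WT at 44 h after PMSG and at 0 h on the x axis. Points are the 2 libraries of a group, marked with their replicate number, and the black line is their mean. Cd200 and Cables1 have nearly the same 4 levels in KO as in WT, Cntf and Nupr1 are lower in KO at both times, Lims2 is highest in untreated KO cells, and Gadd45b is lower at 44 h mainly in KO.

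Cd200, the surface ligand, was 32.6 and 37.2 FPKM in treated KO cells and 97.6 and 95.1 FPKM in untreated KO cells. In WT it was 32.3 and 35.7 FPKM at 44 h and 97.2 and 124 FPKM at 0 h. The untreated libraries of both genotypes were high, the treated libraries were low with no value between, and at each time KO and WT overlapped. The mean fell to 34.9 ± 3.28 FPKM in treated KO cells, against 96.3 ± 1.76 FPKM in untreated KO cells (SD, n = 2 each), a difference of -1.44 on the log2 scale (SE 0.169). The WT means were 33.98 ± 2.42 FPKM at 44 h and 111 ± 19.1 FPKM at 0 h (SD, n = 2 each), a log2 difference of -1.67 with the same SE. Of the 6, Cd200 had the smallest log2 difference in KO. At 0 h its level lay at percentile 89.7 of all genes tested in KO and 91.1 in WT.

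Cntf, the secreted cytokine, was 0.951 and 0.697 FPKM in treated KO cells and 5.31 and 7.47 FPKM in untreated KO cells. In WT it was 1.71 and 1.72 FPKM at 44 h and 11.4 and 12.2 FPKM at 0 h. The 4 groups stood in the order WT at 0 h, KO at 0 h, WT at 44 h and KO at 44 h, and no library overlapped the next group. The ratio of means was 7.76-fold lower at 44 h in KO and 6.87-fold lower in WT, the largest ratios of the 6 genes in each genotype. On the log2(FPKM + 1) scale, which weighs on values this low, the differences were -2.01 in KO and -2.24 in WT (SE 0.217 each). With a pseudocount of 0.1 in place of 1 they were -2.81 in KO and -2.71 in WT, and with 5 they were -0.96 in KO and -1.32 in WT.

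Cables1, the kinase adaptor, was 20.4 and 15.3 FPKM in treated KO cells and 49.1 and 56.1 FPKM in untreated KO cells. In WT it was 13.8 and 14.3 FPKM at 44 h and 47.5 and 53.4 FPKM at 0 h. At 0 h the genotypes overlapped, and at 44 h both KO libraries lay above both WT libraries by a margin smaller than the gap between the KO libraries. The log2 difference between 44 h and 0 h was -1.52 in KO and -1.78 in WT (SE 0.183 each), and the ratio of means was 2.95-fold lower in KO and 3.60-fold lower in WT. The annotation places the lncRNA Gm6277 and the microRNA gene Mir1901 over Cables1, and both had lower values at 44 h in KO and in WT. Gm6277 was 3.65 and 5.21 FPKM in treated KO cells, 11.6 and 12.4 in untreated KO cells, 4.47 and 4.72 in treated WT cells, and 13.2 and 19.8 in untreated WT cells. The sources used here state no strand for the counting, so reads of Cables1 and of the overlapping genes cannot be told apart.

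Lims2, the PINCH adaptor, was 12.3 and 8.60 FPKM in treated KO cells and 39.8 and 46.97 FPKM in untreated KO cells. In WT it was 4.97 and 5.09 FPKM at 44 h and 8.37 and 10.6 FPKM at 0 h. Untreated KO cells alone were high, KO at 44 h overlapped WT at 0 h, and WT at 44 h was lowest. The log2 difference between 44 h and 0 h was -1.97 in KO and -0.79 in WT (SE 0.222 each), or means 4.14-fold lower in KO and 1.89-fold lower in WT. The KO difference minus the WT difference was -1.18. Lims2 is overlapped by Gpr17, a receptor gene, which was 0.541 and 0.749 FPKM in untreated KO cells and at most 0.165 FPKM in the other 6 libraries.

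Nupr1, the stress-induced chromatin protein, had the highest levels of the 6. It was 74.6 and 116 FPKM in treated KO cells and 434 and 525 FPKM in untreated KO cells. In WT it was 160 and 125 FPKM at 44 h and 640 and 588 FPKM at 0 h. At 0 h these levels lay at percentile 98.3 of all genes tested in KO and 98.7 in WT. The groups stood in the same order as for Cntf, without overlap, although the KO and WT libraries at 44 h were as close as 116 and 125 FPKM. The log2 difference between 44 h and 0 h was -2.35 in KO and -2.11 in WT (SE 0.243 each), and the means were 5.03-fold lower in KO and 4.31-fold lower in WT.

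Gadd45b, the stress-kinase activator, was 2.24 and 3.17 FPKM in treated KO cells and 17.6 and 15.7 FPKM in untreated KO cells. In WT it was 8.27 and 6.18 FPKM at 44 h and 7.97 and 12.6 FPKM at 0 h. Untreated KO cells were highest and treated KO cells lowest, with the WT groups between them and overlapping each other. The log2 difference between 44 h and 0 h was -2.26 in KO and -0.44 in WT (SE 0.268 each), so that the KO difference minus the WT difference was -1.83. For Cd200, Cntf, Cables1 and Nupr1 the KO difference minus the WT difference lay between -0.24 and 0.26. KO minus WT for Gadd45b was positive at 0 h (0.68) and negative at 44 h (-1.15). Since the gene was chosen on the KO difference, these are descriptions without a test.

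**Figure D2:**
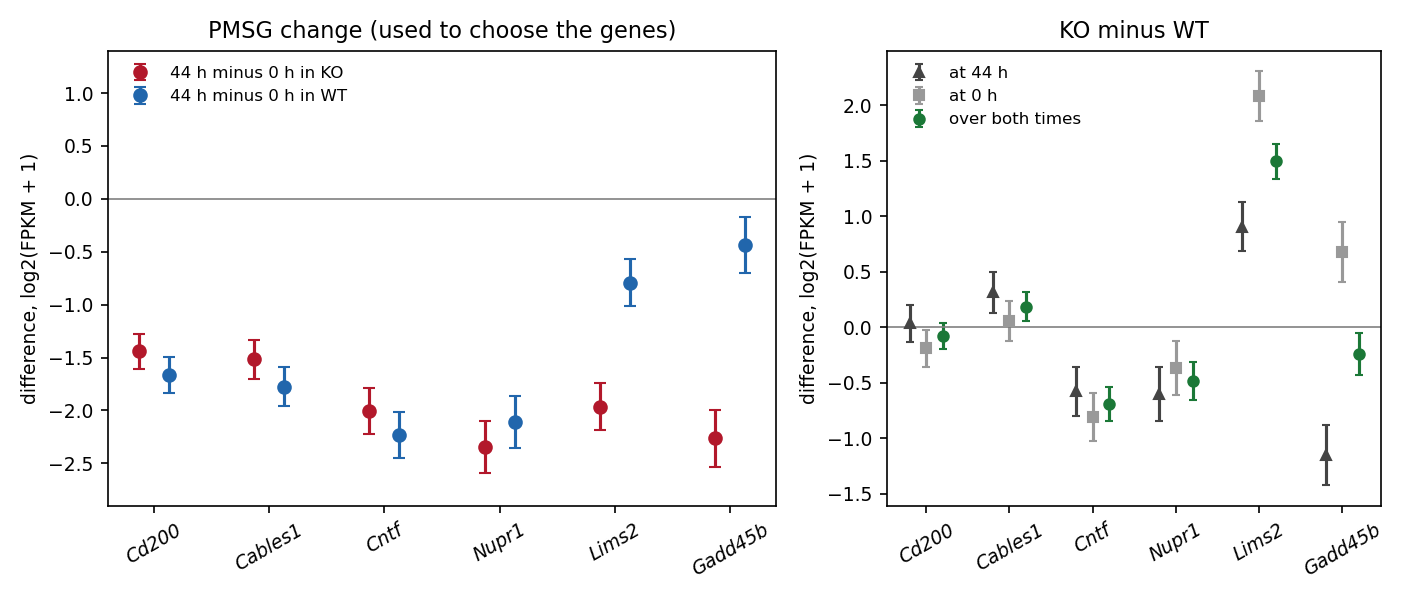
Left, the 44 h minus 0 h difference of each gene in KO and in WT, and right, KO minus WT at 44 h, at 0 h and averaged over both times, all in log2(FPKM + 1). Points are limma estimates and bars are 1 SE (n = 2 libraries per group). The KO and WT differences lie close together for Cd200, Cables1, Cntf and Nupr1 and apart for Lims2 and Gadd45b, and over both times Lims2 lies at 1.50.

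KO minus WT averaged over both times did not enter the choice of genes and was tested, though it shares the libraries' spread with the choosing fit. Lims2 was higher in KO, with a mean log2(FPKM + 1) of 4.48 in KO and 2.99 in WT, a difference of 1.50 (SE 0.157, adjusted p = 0.0305 by limma with Benjamini-Hochberg adjustment over all genes). Both KO libraries lay above both WT libraries at each time, with means 2.08-fold higher at 44 h and 4.57-fold higher at 0 h, as they did for 23.9% of all genes at 44 h and 27.3% at 0 h. Lims2 was the 1 member called of 6, and 0.11% of all genes were called in either direction (15 of 13688) and 0.0731% higher (10 genes). It ranked 45th from the highest difference of all genes. The other genes called higher included Fetub, a secreted protease inhibitor, the MHC class I genes H2-Q6 and H2-Q7, and Gtf2a1l, a germ-cell relative of a general transcription factor. The call was lost under 9 of the 16 alternatives, with adjusted p between 0.00645 and 0.178 over all of them (limma). Among them it was lost without either WT library at 44 h (0.175 each), either KO library at 0 h (0.113 and 0.111) or either WT library at 0 h (0.178 and 0.0812), while the difference stayed between 1.38 and 1.62 when any library was left out.

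The other 5 genes did not pass this test. Cntf was lower in KO at both times without overlap, by -0.58 at 44 h and -0.81 at 0 h, and the average difference was -0.69 (SE 0.153, adjusted p = 0.123 by limma). Nupr1 was likewise lower in KO at both times, by -0.60 at 44 h and -0.36 at 0 h, with an average of -0.48 (SE 0.172, adjusted p = 0.230 by limma). Both KO libraries lay below both WT libraries for 15.1% of all genes at 44 h and 19.1% at 0 h. The average difference of Nupr1 lay between -0.64 and -0.33 over left-out libraries, with -0.64 without KO replicate 2 at 44 h. Cables1 had an average difference of 0.19 (SE 0.129, adjusted p = 0.511) and Cd200 one of -0.08 (SE 0.119, adjusted p = 0.782), both by limma. Gadd45b averaged -0.24 (SE 0.190, adjusted p = 0.569 by limma), the sum of opposite signs at the 2 times.

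Markers of oocytes moved with these values. The label of the RNA is granulosa cells, yet 19 oocyte markers, among them Gdf9, Zp3 and Nlrp5, summed to 4033 and 2402 FPKM in treated KO cells, 8583 and 7374 in untreated KO cells, 1705 and 1724 in treated WT cells, and 3061 and 5212 in untreated WT cells. All 19 were lower at 44 h in both genotypes, with median log2 differences of -1.30 in KO and -1.21 in WT. Limma called 1 (Nlrp5) in KO and 0 in WT. An unadjusted p under 0.05 was found for 18 in KO and 19 in WT, against 2884 and 3301 of all 13688 genes. Without KO replicate 1 at 44 h, which leaves 1 treated KO library, the median in KO was -1.72. Fitted to the WT groups alone, limma called 4 of the 19 lower, against 2.91% of all genes. All 19 were higher in KO averaged over both times, with a median of 0.94 and a range of 0.70 to 1.18. Limma called 0 of them, and 19 had an unadjusted p under 0.05, as did 2332 of all 13688 genes. Lims2 followed this list most closely: its log2 values had a Pearson correlation of 0.92 with the list's median over the 8 libraries, against 0.56 to 0.85 for the other 5 genes. With the median of granulosa markers, Foxl2 and Inha among them, the correlation was -0.63 for Lims2 and -0.69 to -0.80 for the others. These libraries share depth and handling, and no test is given. Per 1000 FPKM of oocyte markers, Lims2 was 3.06 and 3.58 in treated KO cells, 4.64 and 6.37 in untreated KO cells, 2.92 and 2.95 in treated WT cells, and 2.74 and 2.04 in untreated WT cells. The highest of these values was 3.13-fold the lowest, against 9.44-fold for the Lims2 FPKM. Divided likewise, Cables1 spanned 3.06-fold against 4.08-fold for its FPKM, and Cntf 15.7-fold against 17.5-fold. Cd200 spanned 3.93-fold against 3.85-fold, Nupr1 11.3-fold against 8.58-fold and Gadd45b 8.73-fold against 7.87-fold. The KO minus WT difference of Lims2 (1.50) was above that of each of the 19 markers. The part of oocyte RNA in the levels of the 6 genes was not tested.

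At 0 h the oocyte markers had a median KO minus WT difference of 0.96. The difference was 2.08 for Lims2, 0.68 for Gadd45b, -0.81 for Cntf and -0.36 for Nupr1. It was -0.19 for Cd200 and 0.06 for Cables1, both with overlapping libraries. Markers of other cells were also measured. Lists covered theca and stroma, endothelium, immune cells, surface epithelium, oviduct and nerve. Of their 41 tested genes limma called 0 in either PMSG comparison. An unadjusted p under 0.05 was found for 5 in KO and 10 in WT, against 2884 and 3301 of all 13688 genes. Fitted to the WT groups alone, limma called 7 of the 41 higher, against 3.99% of all genes, and 1 lower, against 2.91%. The 9 tested markers of surface epithelium had a median log2 difference of 1.31 in KO over all libraries. It was 2.19 in KO without KO replicate 1 at 44 h, with 1 treated KO library left, and 0.51 in WT. These markers, keratins among them, summed to 153 and 459 FPKM in treated KO cells, 175 and 129 in untreated KO cells, 238 and 238 in treated WT cells, and 197 and 170 in untreated WT cells. The part of these cells in the levels of the 6 genes was not tested. Ptprc, the pan-leukocyte marker, was at most 2.76 FPKM, and Sox10, a marker of Schwann cells, was at most 0.031 FPKM.

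**Figure D3:**
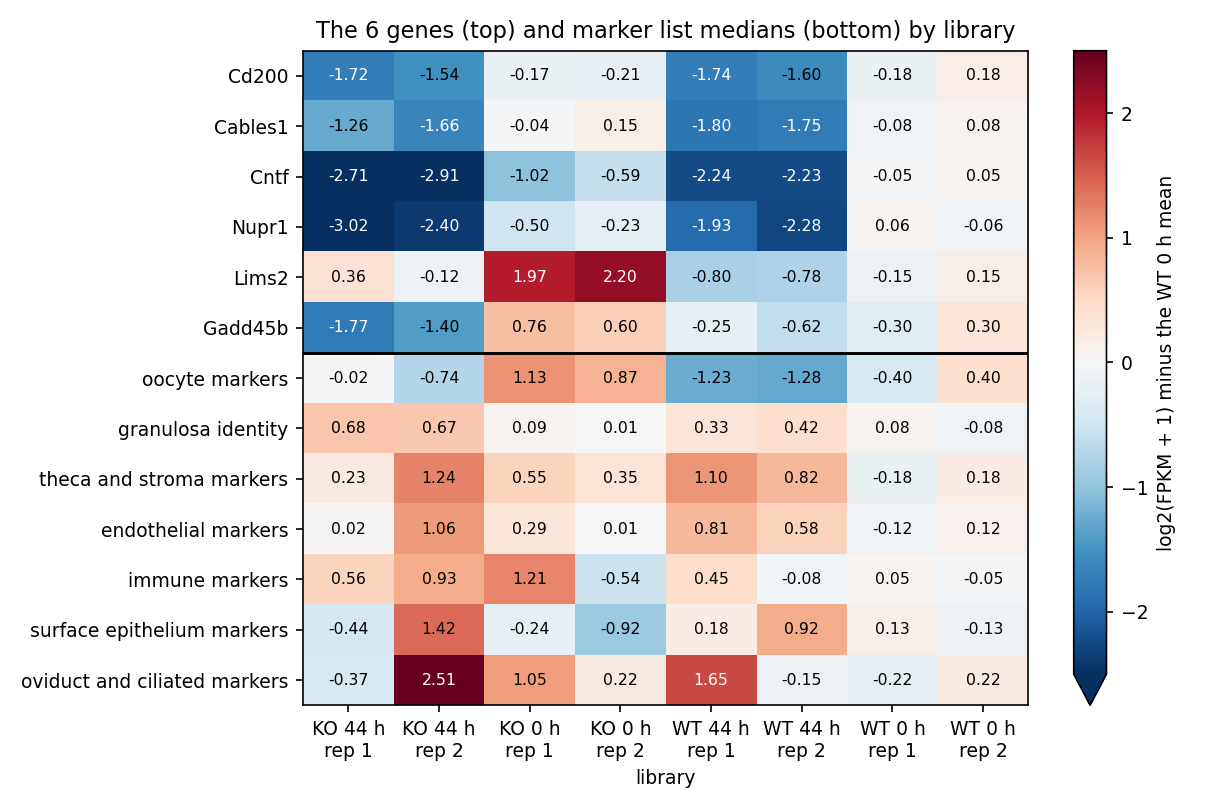
Each of the 6 genes (above the line) and the median of each marker list (below it) in each library, as log2(FPKM + 1) minus the WT 0 h mean, with blue below and red above it. The colour scale ends at -2.5 and 2.5, and the printed number gives the value. The Lims2 and Gadd45b rows are highest in the KO 0 h libraries, where the oocyte markers are also highest. Cntf and Nupr1 are below 0 in those libraries, and Cd200 and Cables1 are near 0 in all 4 untreated libraries.

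The 2 KO libraries at 44 h, which differ widely in Cyp11a1, were set separately against the KO 0 h mean. KO replicate 1 gave log2 differences of -1.54 for Cd200, -1.91 for Cntf, -1.32 for Cables1, -1.73 for Lims2, -2.66 for Nupr1 and -2.45 for Gadd45b. KO replicate 2 gave -1.35, -2.11, -1.72, -2.20, -2.03 and -2.08 for the same genes in the same order. The 6 genes were thus low in both libraries, but a gene whose replicates differ is less likely to pass the threshold that chose them, and nothing is read from this.

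Over the 8 libraries Cd200, Cntf, Cables1 and Nupr1 formed a group, with Pearson correlations of log2 values of 0.90 to 0.97 for each pair. Gadd45b correlated with the other genes at 0.56 to 0.84, and Lims2 at 0.39 to 0.71. Among 8051 genes with a mean of at least 5 FPKM, those with the most similar pattern to Cd200 were Mthfd1 (0.992), Ero1lb (0.987) and Rph3al (0.986). Closest to Cables1 were Ero1lb (0.995), Dctd (0.991) and Ets2 (0.991), and closest to Nupr1 were Ap3b1 (0.991), Exoc1 (0.988) and Mettl14 (0.985). Cntf was closest to Vgll4 (0.983), Foxo1 (0.979) and Armc10 (0.977). Lims2 was closest to Ell3 (0.981), Epha4 (0.977) and Zfp473 (0.971), and Gadd45b to Telo2 (0.975), Trim39 (0.974) and Deptor (0.974). Most of these genes changed much less than the members: Mthfd1, a folate enzyme, was 30.6 and 31.6 FPKM in treated KO cells, 44.4 and 46.8 in untreated KO cells, 30.4 and 29.6 in treated WT cells, and 44.7 and 48.6 in untreated WT cells. Foxo1, a forkhead transcription factor held in check by FSH signalling, was 57.5 and 52.6 FPKM in treated KO cells, 77.1 and 96.8 in untreated KO cells, 60.7 and 67.1 in treated WT cells, and 119 and 106 in untreated WT cells. With so few libraries in clusters by time, these correlations are descriptions.

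Genes next to the members on their chromosomes mostly did not share the pattern. Rbbp8, beside Cables1, lay between 16.4 and 21.8 FPKM, with log2 differences of 0.05 in KO and -0.05 in WT. Zfp91, whose transcripts can read through into Cntf, lay between 4.89 and 7.07 FPKM, with differences of 0.07 in KO and -0.04 in WT. Sft2d3, beside Lims2, lay between 4.85 and 9.50 FPKM, with differences of 0.19 in KO and -0.06 in WT. Both Ccdc101 and Lmnb2 had lower values at 44 h by less than the member: Ccdc101, now Sgf29, lies beside Nupr1 (-0.44 in KO and -0.58 in WT) and Lmnb2 beside Gadd45b (-0.29 in KO and -0.50 in WT). Tmem241, listed under an older clone name beside Cables1, lay between 7.12 and 10.7 FPKM. Il27 beside Nupr1 was listed at 0 in all 8 libraries, Keg1, Myo7b and Gm609 were at most 0.227 FPKM, Gng7 at most 1.06 and Btla at most 1.99. The 6 genes lie on chromosomes 16 (Cd200), 19 (Cntf), 18 (Cables1 and Lims2), 7 (Nupr1) and 10 (Gadd45b).

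The transcripts of the 6 genes are mostly short. The longest basic coding transcript (GENCODE M21) was 829 bases for Nupr1, 1073 for Cntf, 1284 for Gadd45b, 1870 for Lims2, 2347 for Cd200 and 3396 for Cables1, against a median of 2998 over 11713 genes tested with such a transcript. Their 3′ UTRs were 344 bases in Nupr1, 238 in Cntf, 558 in Gadd45b, 629 in Lims2, 1324 in Cd200 and 1025 in Cables1, against a median of 1056. The AU-rich pentamer ATTTA, a motif known from unstable mRNAs, occurred 3 times in the 3′ UTR of Cd200, once there as TATTTAT, and 0 times in those of the other 5. Over all genes with a transcript, 67.9% had an ATTTA and 28.6% a TATTTAT in the 3′ UTR.

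Genes that act with the members were then compared at 44 h and 0 h, in 7 lists of partners and relatives with 137 genes, 116 of them tested and the members left out. Limma over all 8 libraries called 0 of the 116 in KO and 0 in WT. An unadjusted p under 0.05 was found for 26 in KO and 33 in WT, and for 2884 and 3301 of all 13688 genes. Fitted to the WT groups alone, limma called 11 of the 116: 6 were higher at 44 h (5.17%, against 3.99% of all genes) and 5 were lower (4.31%, against 2.91% of all genes). Those higher were Clcf1, Cish, Slc3a2, Mapk13, Cited2 and Bnip3, and those lower were Tgfb1i1, Foxo1, Sesn1, Txnip and Klf6. Without KO replicate 1 at 44 h, limma called 7 of the 116 in KO and 13 in WT, where 6 were higher (4.98% of all genes were) and 7 lower (4.76% of all genes were). The 7 in KO were Slc3a2, Ccng2, Cited2 and Bnip3, which were higher (4.35% of all genes were), and Tgfb1i1, Sesn1 and Txnip, which were lower (4.19% of all genes were).

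The receptor side of Cd200 was scarcely measured. Cd200r1, the receptor found on myeloid cells, was at most 1.04 FPKM in any library and was not tested. Of its adaptors Dok1 was 7.43 and 13.5 FPKM in treated KO cells, 7.98 and 4.88 in untreated KO cells, 11.1 and 10.3 in treated WT cells, and 5.95 and 4.99 in untreated WT cells, and did not pass in the fit over all libraries. The list's 6 tested genes had median log2 differences of -0.48 in KO and -0.25 in WT.

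Of the CNTF receptor chains, Cntfr was at most 0.400 FPKM and was not tested, whereas Lifr lay between 6.47 and 11.9 FPKM and Il6st, the gp130 chain, between 9.84 and 17.0 FPKM. Clcf1, another ligand of the CNTF receptor, was 0.258 and 2.07 FPKM in treated KO cells, 0.646 and 0.271 in untreated KO cells, 3.54 and 2.54 in treated WT cells, and 0.144 and 0.391 in untreated WT cells. Cntf and Clcf1 thus stood in opposite order over time in WT. Cish, an inhibitor of cytokine receptor signalling through STAT factors, was 0.608 and 2.24 FPKM in treated KO cells, 1.46 and 0.892 in untreated KO cells, 8.46 and 12.9 in treated WT cells, and 0.721 and 0.939 in untreated WT cells. In the fit to the WT groups alone Cish rose by 2.65 (SE 0.257, adjusted p = 0.0091) and Clcf1 by 1.67 (SE 0.232, adjusted p = 0.0230), both by limma and on the log2 scale. The list's 18 tested genes had medians of -0.07 in KO and 0.08 in WT.

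Around Cables1, its relative Cables2 lay between 1.72 and 3.15 FPKM and its partner kinase Cdk5 between 25.0 and 37.0 FPKM. Wee1, the kinase whose action on CDK2 CABLES1 promotes, was 13.4 and 9.30 FPKM in treated KO cells, 15.1 and 17.4 in untreated KO cells, 8.80 and 8.63 in treated WT cells, and 12.8 and 16.4 in untreated WT cells. The treated libraries of Wee1 lay below the untreated ones within each genotype, and it did not pass (log2 difference -0.50 in KO and -0.67 in WT, SE 0.222 each). Over the 12 tested genes of the list the medians were -0.08 in KO and -0.15 in WT.

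Lims1, which encodes PINCH1, the other partner of integrin-linked kinase, lay between 20.0 and 32.3 FPKM and Ilk between 85.0 and 138 FPKM. Lims1 differed by 0.36 in KO and -0.01 in WT (SE 0.197 each), unlike Lims2. Tgfb1i1, which encodes the focal adhesion adaptor HIC-5, was 11.9 and 19.7 FPKM in treated KO cells, 42.4 and 37.9 in untreated KO cells, 20.1 and 20.2 in treated WT cells, and 37.7 and 44.7 in untreated WT cells. In the fit to the WT groups alone Tgfb1i1 fell by 0.99 on the log2 scale (SE 0.149, adjusted p = 0.0275 by limma). The list's 17 tested genes had medians of 0.01 in KO and 0.08 in WT.

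Of the stress genes listed with Nupr1, Atf4, which encodes a transcription factor upstream of it, lay between 25.0 and 38.7 FPKM with differences of 0.10 in KO and 0.39 in WT, and Ddit3, a target of ATF4, lay between 24.2 and 33.8 FPKM with differences of -0.31 in KO and -0.06 in WT. Eif2ak4, which encodes a kinase that acts upstream of ATF4, was 3.11 and 2.95 FPKM in treated KO cells, 5.94 and 5.82 in untreated KO cells, 2.81 and 2.23 in treated WT cells, and 3.90 and 4.50 in untreated WT cells. Its libraries at 44 h lay below those at 0 h in both genotypes, as those of Nupr1 did, with log2 differences of -0.77 in KO and -0.56 in WT. None of the 3 genes passed. Slc3a2, an amino acid transporter chain, was 305 and 299 FPKM in treated KO cells, 160 and 155 in untreated KO cells, 251 and 291 in treated WT cells, and 152 and 142 in untreated WT cells, opposite in order to Nupr1. It rose by 0.88 in the fit to the WT groups alone (SE 0.136, adjusted p = 0.0298 by limma, log2 scale). Gdf15, a stress-induced cytokine, was 0.811 and 0.938 FPKM in treated KO cells, 3.97 and 2.93 in untreated KO cells, 0.706 and 1.12 in treated WT cells, and 1.50 and 3.18 in untreated WT cells, and did not pass. The list's 26 tested genes had medians of -0.08 in KO and -0.19 in WT.

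Gadd45a, a relative of Gadd45b, was 12.4 and 19.4 FPKM in treated KO cells, 35.8 and 23.6 in untreated KO cells, 43.0 and 20.5 in treated WT cells, and 43.6 and 38.2 in untreated WT cells, lower at 44 h in KO and overlapping in WT as Gadd45b was. Gadd45g was 39.7 and 36.4 FPKM in treated KO cells, 28.3 and 37.2 in untreated KO cells, 46.2 and 56.8 in treated WT cells, and 34.6 and 24.0 in untreated WT cells. Map3k4, the kinase that GADD45 proteins bind, was 8.38 and 9.12 FPKM in treated KO cells, 15.0 and 15.2 in untreated KO cells, 8.62 and 7.29 in treated WT cells, and 11.7 and 14.2 in untreated WT cells. None of the 3 passed in the fit over all libraries, where Gadd45a differed by -0.86 in KO and -0.44 in WT, Gadd45g by 0.22 and 0.81, and Map3k4 by -0.72 and -0.63. Mapk13, a p38 kinase gene, rose by 2.09 in the fit to the WT groups alone (SE 0.218, adjusted p = 0.0105 by limma, log2 scale). The list's 19 tested genes had medians of -0.05 in KO and -0.12 in WT.

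FOXO factors and their targets were listed because Foxo1 is a factor that FSH signalling restrains. The 18 tested genes had medians of -0.16 in KO and -0.39 in WT. In the fit to the WT groups alone, 6 of the 11 partner genes called came from this list. Of the 18, 2 were called higher, against 3.99% of all genes, and 4 lower, against 2.91%. Foxo1 fell by 0.80 (SE 0.134, adjusted p = 0.0353), Sesn1 by 0.92 (SE 0.182, adjusted p = 0.0470) and Txnip by 1.26 (SE 0.120, adjusted p = 0.0091) in WT, whereas Bnip3 rose by 1.46 (SE 0.202, adjusted p = 0.0227), all by limma on the log2 scale. Sesn1 and Txnip encode stress-response proteins and Bnip3 a mitochondrial autophagy receptor. The called genes of the list thus went in both directions, with Cited2 also higher and Klf6 also lower.

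**Figure D4:**
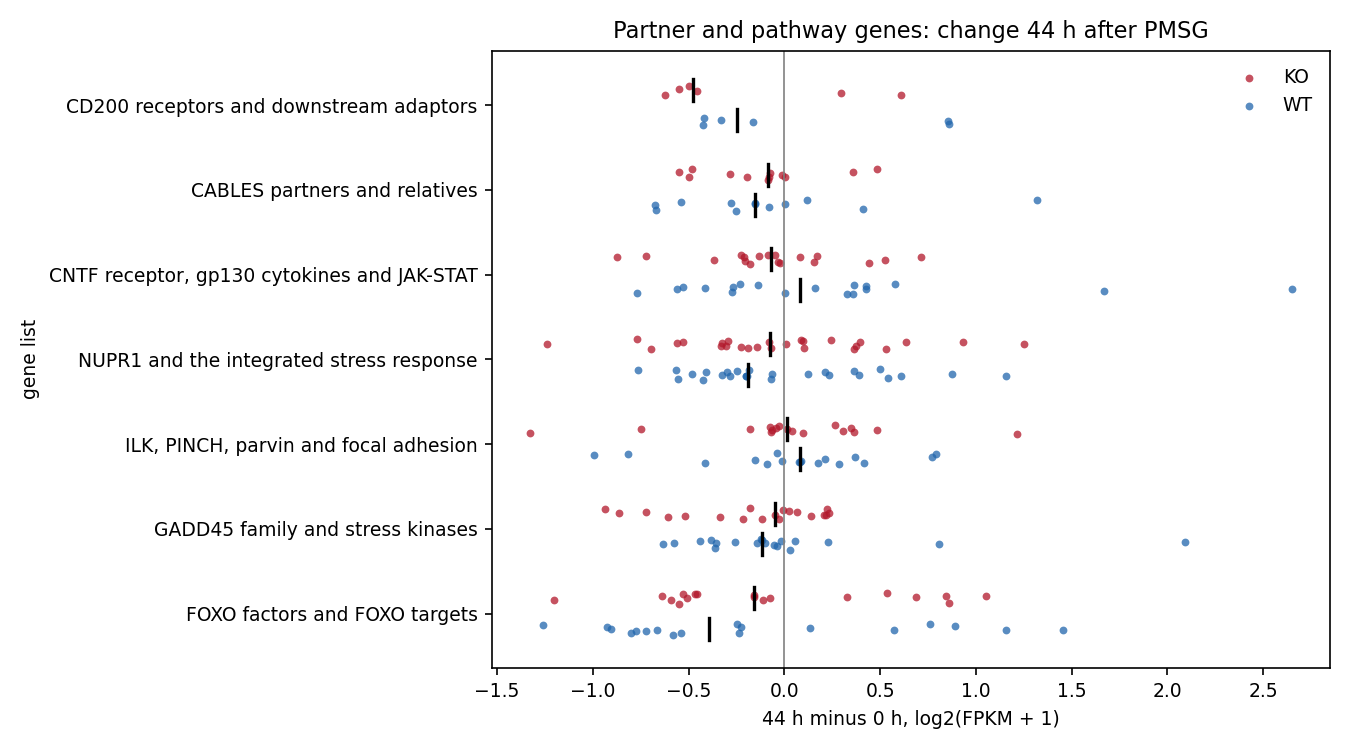
The 44 h minus 0 h difference, in log2(FPKM + 1), of each tested gene of the 7 partner lists, with KO above WT in each list. Points are genes, their small vertical offsets are arbitrary, and the black bar is the list's median, which lies between -0.48 and 0.08. The outlying WT points to the right are Cish at 2.65 and Mapk13 at 2.09.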

How the data were processed

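Total RNA was sequenced in 8 libraries, 2 per group. The authors deposited 1 table of FPKM values, with a column per library and no unused sample column. Per the submitters' processing notes, mm9, Cufflinks 2.2.1 and TopHat2 2.1.1 were used; their roles, the annotation, strand and filters are not stated there. FPKM are not counts, so no count model was used. Genes with at least 1 FPKM in at least 2 libraries (13688) were analysed as log2(FPKM + 1). Limma 3.58.1 (R 4.3.3) fitted a mean per group across the 8 libraries, with trended empirical Bayes and two-sided tests, and the Benjamini-Hochberg adjustment ran over every gene tested. The fit was tested on simulated data.

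The members, lists, motifs and tests were chosen with earlier results of these data known, and the motifs with the 4 promoters in view. Named genes were the 6 members, their neighbours, the 3 genes most correlated with each, 18 direct partners (values are given for most), up to 3 genes per list with the smallest p, Cnot6 and Cnot6l; genes called over both times, in WT alone or without KO replicate 1 at 44 h, the genes at the threshold, and the markers were named after their values were seen. Promoters and names came from RefSeq tables on GRCm38.p6 and transcripts from GENCODE M21, matched by symbol. Python 3.11.15 computed the rest. Alternatives covered pseudocount, filter, scaling, replicate block, robust estimation, the groups compared alone and leaving out each library.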

Additional observations from a re-analysis of the deposited data

Results flagged for a closer look

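Gadd45b was picked out because both KO libraries lay above both WT libraries at 0 h and below them at 44 h. Of all genes tested, 27.3% lay above in this way at 0 h and 15.1% lay below at 44 h. KO minus WT was -1.15 at 44 h and 0.68 at 0 h in log2(FPKM + 1). This difference between the times was not tested, since the gene was chosen on the KO change over the same libraries.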

How the results depend on the processing

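Lims2 kept its direction under all 16 alternatives, and the count of members called over both times, 1, became 0 without a filter on low values, 0 with quantile scaling and 0 with the replicate block, and 0 to 2 when a library was left out. Without WT replicate 2 at 0 h the difference of Cd200 was 0.011, of opposite sign (-0.16 to 0.011 over left-out libraries). The median change of the 6 genes in KO was -2.21 with pseudocount 0.1, -1.42 with 5, -1.89 with quantile and -1.85 with median-of-ratios scaling, and -2.14 to -1.82 over left-out libraries; in WT it was -1.43 with pseudocount 5, -1.58 with median-of-ratios scaling, and -1.85 to -1.59 over left-out libraries. Median-of-ratios scaling moved the median of all genes by 0.14 in KO and 0.12 in WT. Pseudocounts weigh more on low values, such as those of Cntf and Gadd45b, whose part in these shifts was not tested.

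Calls over all genes depended most on the library left out. With a library left out, its group keeps 1 library, and the spread comes from the other groups. Over both times 15 became 6 without a filter, 26 with robust estimation and 7 to 1341 over left-out libraries (1341 without KO replicate 2 at 44 h). In KO 19 (10 higher, 9 lower) became 10 and 8 with pseudocounts 0.1 and 5, 6 without a filter, 6 with the replicate block, 35 with robust estimation, 9 in the KO groups alone and 3 to 1169 over left-out libraries; quantile scaling gave 13 higher and 6 lower, and median-of-ratios 14 and 5. In WT 11 (7 higher, 4 lower) became 7 with quantile scaling (6 and 1), 30 with median-of-ratios (24 and 6), 7 with the replicate block, 34 with robust estimation, 945 in the WT groups alone and 4 to 1333 over left-out libraries. Partner genes called in KO were 0 to 7 over left-out libraries; in WT they were 1 with robust estimation, 11 in the WT groups alone and 0 to 13 over left-out libraries. Apart from robust estimation and the groups alone, whose spread is estimated differently, the cause was not tested.

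Same-numbered libraries' deviations from their group means correlated between -0.11 and -0.01. With 2 libraries per group this cannot tell whether replicate numbers pair the libraries. With the replicate block, the adjusted p of Lims2 was 0.107 (limma).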
